A study of Mus musculus with 9 samples.

Results

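Different depths of myonuclear loss were set against each other in the tibialis anterior (TA), the fast muscle at the front of the shin: Δ1w muscle, in which fusion was blocked from birth, and Δ2w muscle, in which it was blocked about a week later. The comparison holds the 3 Δ1w and the 3 Δ2w arrays out of 9 in the series, and all 22206 gene rows of the Clariom S Mouse array, which reports 1 signal per gene from the total RNA of 1 mouse. The 3 control arrays did not enter the fit from which the results are given, except in an alternative with all groups in 1 model, and are shown as background. All mice were P28 (postnatal day 28) and carried a floxed *Mymk* allele. Δ1w replicates 1, 5, and 8 had the genotypes 8c fl/fl; Pax7creER; mTmG/+, 8c LacZ/fl; Pax7creER; mTmG/+, and 8c fl/fl; Pax7creER, with tamoxifen at P0. All 3 Δ2w mice (replicates 2, 3, and 4) were 8c LacZ/fl; Pax7creER; mTmG/+, with tamoxifen at P6. Control mice lacked Pax7creER, and were 8c LacZ/fl; mTmG/+ (replicates 1 and 6) or 8c fl/fl; mTmG/+ (replicate 2). They are labelled as not having had tamoxifen, whereas the study's methods give it to every mouse. The LacZ allele of *Mymk* was therefore present in 1 of 3 Δ1w, 3 of 3 Δ2w, and 2 of 3 control mice, and mTmG, a Cre reporter, was missing from Δ1w replicate 8. A fit of the 6 arrays with the LacZ allele as a covariate thus sets Δ1w replicate 5 alone against the Δ2w mice. It cannot separate the allele from that mouse. The labels put the average number of myonuclei per fiber at 55 in Δ1w, 100 in Δ2w, and 233 in control muscle. The study counted these in extensor digitorum longus fibers, in older mice for Δ2w. The day of tamoxifen and the number of nuclei differ together between the models and cannot be told apart.

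A skeletal muscle fiber is a syncytium. It gains nuclei after birth when progenitors of the satellite cell lineage fuse to it, and Myomaker, the membrane protein encoded by *Mymk*, is required for that fusion. Pax7creER acts in satellite cells and not in the nuclei a fiber already holds, so a fiber that stops gaining nuclei must supply a growing cytoplasm from the nuclei it has. Fibers also differ in type. Slow fibers express the slow isoforms of myosin, troponin, and the sarcoplasmic calcium pump, fast fibers the fast ones, and the mouse TA is made mostly of fast fibers.

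*Mymk* was low in both models. Its log2 signal was 8.99, 7.49, and 7.94 in Δ1w replicates 1, 5, and 8, 8.39, 7.67, and 6.70 in Δ2w replicates 2, 3, and 4, and 11.82, 12.03, and 11.61 in control replicates 1, 2, and 6, the order in which values per array are given below. Δ1w exceeded Δ2w by 0.55 with a standard error of 0.46 (adjusted p = 0.784, limma with Benjamini-Hochberg adjustment over the 22206 rows, as are all adjusted p-values below), so the models did not differ detectably in the transcript that was targeted. Markers of fast skeletal muscle were bright on every array. *Acta1* and *Myh4* lay between 19.81 and 19.93, at the ceiling of the table (19.93), where a difference cannot be read. *Mb*, myoglobin, was at 18.91, 18.52, and 18.77 in Δ1w, 19.26, 19.07, and 19.30 in Δ2w, and 19.06, 19.28, and 18.93 in control muscle. Of 5 muscle marker genes it was the only one at an unadjusted p under 0.05 (difference −0.47, standard error 0.17, adjusted p = 0.541). The 6 arrays had similar medians (6.38 to 6.44). Their negative control probes had medians of 5.77 to 6.08 and a 95th percentile of 9.54 to 9.82, so dim genes lie within the range of background and their differences are uncertain in size. In distance over all rows, however, Δ1w replicate 1 was nearer to the 3 Δ2w arrays (63.7, 63.0, and 67.9 in Euclidean log2 units) than to Δ1w replicates 5 and 8 (71.5 and 75.2). The sample names carry a prefix for which the sources used here give no meaning. The 3 Δ2w mice share theirs with control replicates 1 and 6, Δ1w replicates 5 and 8 share another, and Δ1w replicate 1 and control replicate 2 each have their own. No Δ1w mouse shares a prefix with a Δ2w or control mouse, so between the models prefix and group cannot be told apart, and wherever Δ2w is set beside control below, most of those mice share a prefix. The replicates are separate mice.

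Between Δ1w and Δ2w muscle 1 gene passed the test across all rows, *Myl2*, and a wider set of differences did not pass it. *Myl2* encodes the slow regulatory light chain of myosin, and was 4.7-fold higher in Δ1w muscle. The share of rows called was 0.0045% (1 of 22206). At an unadjusted p under 0.05 there were 983 rows higher and 878 rows lower in Δ1w muscle, 4.43% and 3.95% of all rows. In 7.2% of rows every Δ1w array lay above every Δ2w array, and in 6.97% every Δ1w array lay below. Of the rows at an unadjusted p under 0.05, 149 were at least 2-fold apart, 95 higher and 54 lower in Δ1w muscle. Arrays of different models were on average 68.8 apart and arrays of the same model 64.3. This difference of 4.48 had a one-sided p of 0.10 in an exact permutation test, the smallest that 3 against 3 arrays allow. The same-model distances were 54.0, 57.9, and 59.1 within Δ2w, but 71.5, 75.2, and 68.2 within Δ1w. The closeness within a model is thus that of the Δ2w arrays, and the Δ1w arrays form no tight group. The median standard deviation of a row was 0.241 in Δ1w, 0.191 in Δ2w, and 0.225 in control muscle. In simulations with the spread of these 6 arrays, independent noise, and 200 changed rows, 36.0% of rows changed by 1 on the log2 scale and 87.7% of rows changed by 2 were recovered. These shares depend on the number of rows changed, which is not known here. They are therefore not the chance of a call in these data.

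The genes furthest apart were those of slow fibers. Of 20 slow-fiber genes measured, 1 rose in Δ1w muscle (*Myl2*) and 0 fell by limma's adjusted p. At an unadjusted p under 0.05, 10 were higher and 0 lower, and the same 10 had no overlap between the models. They are 50% of the list, against 4.43% of all rows higher at that p and 7.2% higher with no overlap. The list was written with earlier results of these data known. Of the 10, 6 are in the study's heat map of fiber type, chosen on these samples (*Sln*, *Myh7*, *Tnni1*, *Tnnc1*, *Tnnt1*, and *Atp2a2*). The share is therefore a description and no independent evidence. The median difference of the list was 0.59, against 0.001 over all rows. Counts in every list below stand beside the same shares, and beside 3.95% and 6.97% for rows lower in Δ1w muscle. *Myl2* was at 14.63, 14.83, and 14.82 in Δ1w, 12.84, 12.36, and 12.38 in Δ2w, and 12.03, 13.18, and 11.63 in control muscle. The 3 Δ1w mice lay close to each other and above all others, and the Δ2w mice lay within the control range. The difference was 2.23 (standard error 0.19, adjusted p = 0.0151). It was 2.10 to 2.39 over 16 alternatives, of which 9 called it (adjusted p = 0.000862 to 0.272). The call was lost without Δ1w replicate 5 or 8 or Δ2w replicate 3 or 4 (differences of 2.20, 2.20, 2.15, and 2.16). It was also lost with a clock gene index as a covariate (2.10) and with all 3 groups in 1 model (2.23). With the LacZ allele as a covariate, which leaves Δ1w replicate 5 alone against Δ2w, the difference was 2.30. That fit is not among those that called it, and with 1 Δ1w mouse only its difference is read.

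*Sln* encodes sarcolipin, a small inhibitor of the sarcoplasmic calcium pump, and had the largest difference among the genes eligible for naming. Its signal was 11.37, 13.47, and 13.08 in Δ1w, 9.21, 9.48, and 9.14 in Δ2w, and 8.45, 8.55, and 9.80 in control muscle. Every Δ1w mouse was above the other 6 mice, but the Δ1w mice themselves spanned a wide range, with replicate 1 lowest. The difference was 3.36, or 10.29-fold (standard error 0.46, adjusted p = 0.145). Without Δ1w replicate 1 it was 4.0 (adjusted p = 0.0011). *Atp2a2*, the slow and cardiac calcium pump SERCA2 that sarcolipin binds, was at 13.98, 14.67, and 14.43 in Δ1w, 13.30, 12.60, and 12.62 in Δ2w, and 13.53, 13.40, and 12.91 in control muscle (difference 1.52, standard error 0.25). In this gene the Δ2w mice reached below the control range.

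The slow sarcomere genes ran the same way. *Tnni1*, slow troponin I, was at 10.54, 11.50, and 11.74 in Δ1w, 9.25, 8.25, and 7.42 in Δ2w, and 8.24, 9.32, and 8.18 in control muscle (difference 2.96, standard error 0.45, adjusted p = 0.193). *Tnnc1*, troponin C of slow and cardiac muscle, was at 11.62, 12.92, and 12.80 in Δ1w and 10.92, 9.17, and 8.79 in Δ2w muscle. For *Myh7*, the heavy chain of slow myosin, signals were 12.09, 13.97, and 13.36 in Δ1w and 11.35, 9.38, and 8.73 in Δ2w muscle. In both of these genes the gap between the lowest Δ1w mouse (replicate 1) and the highest Δ2w mouse (replicate 2) was narrow beside the spread within a model, and Δ2w replicate 2 lay above the control mice (9.99, 10.39, and 9.53 for *Tnnc1*, and 10.56, 10.96, and 9.65 for *Myh7*). The differences were 2.82 (standard error 0.53) and 3.32 (standard error 0.65). *Tnnt1*, slow troponin T, was higher by 2.05 in Δ1w muscle (standard error 0.41), *Tpm3*, slow tropomyosin, by 1.18 (standard error 0.30), *Myl3*, a slow essential light chain, by 0.83 (standard error 0.18), and *Lmcd1*, a LIM-domain protein, by 0.62 (standard error 0.20). *Myl3* was a case apart, since its Δ2w signals (9.46, 9.12, and 9.32) were below all 3 controls (10.30, 10.82, and 9.77), which the Δ1w signals (10.18, 10.28, and 9.94) overlapped.

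**Figure D1:**
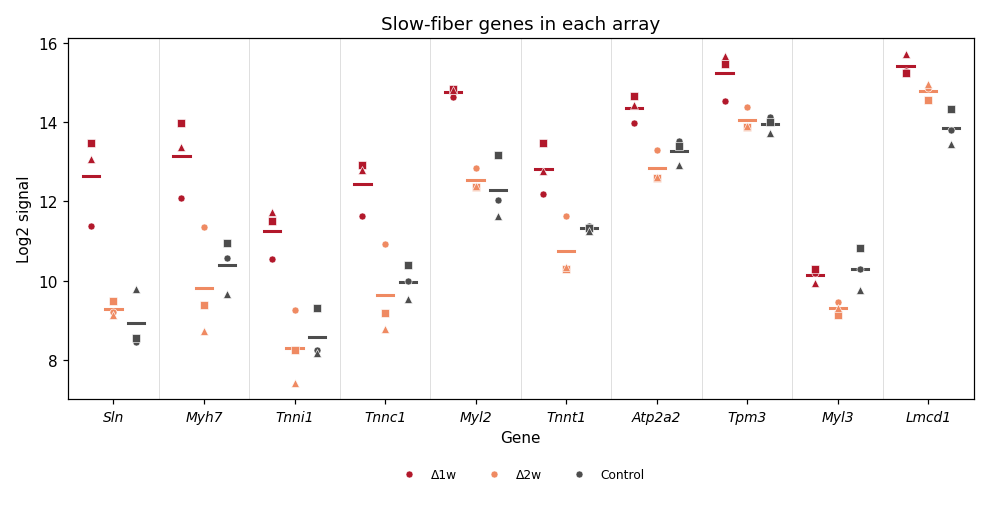
Log2 signal (y axis) of the 10 slow-fiber genes at an unadjusted p under 0.05 (x axis), with Δ1w, Δ2w, and control arrays from left to right within each gene. Points are single mice, with circle, square, and triangle for replicates 1, 5, and 8 of Δ1w, 2, 3, and 4 of Δ2w, and 1, 2, and 6 of control, and bars are means. In each gene the 3 Δ1w points lie above the 3 Δ2w points, most narrowly in *Tpm3* (14.54 for the lowest Δ1w mouse and 14.38 for the highest Δ2w mouse).

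The other 10 members did not reach an unadjusted p of 0.05. *Myoz2*, a Z-disc protein of slow fibers, was at 18.05, 18.59, and 18.44 in Δ1w, 17.88, 17.84, and 18.09 in Δ2w, and 17.14, 17.09, and 16.96 in control muscle, so that both models stood above control with an overlap between them (difference 0.42, standard error 0.19). *Csrp3* and *Ankrd2*, stretch-responsive proteins of the Z-disc, differed by 0.39 (standard error 0.44) and 0.09 (standard error 0.30). *Myh7b*, *Myom3*, *Actn2*, and *Mybpc1* had differences of −0.06, −0.15, −0.02, and −0.14. Across the 20 genes the mean signal was 12.64, 13.11, and 13.15 in the Δ1w arrays, 12.08, 11.61, and 11.82 in the Δ2w arrays, and 11.66, 11.87, and 11.26 in the control arrays. The Δ1w arrays were the 3 highest, and those of Δ2w overlapped control. Without any 1 of the 6 arrays the list kept a median of 0.51 to 0.79, with 9 to 12 members higher at an unadjusted p under 0.05. With Δ1w replicate 1 or replicate 5 as the only Δ1w array, an alternative chosen after seeing the data, the median was 0.49 or 0.57. In whole muscle, more slow fibers and more slow transcript per fiber cannot be told apart, and likewise fewer cells of a type and less RNA per cell.

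Promoter windows of the slow-fiber genes were read for 3 motifs of muscle promoters, because the 10 of these genes at an unadjusted p under 0.05 all had the same sign. A window runs from 250 bases before to 50 bases after a RefSeq transcription start (GRCm38.p6), and 18 of the 20 genes have one or more, 23 windows in all. The E-box (CANNTG, its own reverse complement), bound by myogenic regulators, was present in 23 of the 23 windows, and in 72.3% of all 32851 windows. The MCAT motif (CATTCC, on either strand), bound by TEAD factors, was in 3 of the 23 windows and 14.7% of all. The MEF2 motif, searched on both strands, was in 3 of 23 and 3.2% of all. The MCAT windows belong to *Myl3*, *Tnnc1*, and *Myh7* (in only 1 of its windows), and the MEF2 windows to *Casq2*, *Myoz2*, and *Myom3*. The MCAT genes were among the 10 genes above and the MEF2 genes were not. These are 3 genes each, and a link between motif and difference was not tested. The windows of the called gene and of a pair of troponin genes with large differences are shown, all on the + strand, with E-boxes in capitals and, in *Tnnc1*, also the MCAT motif on the opposite strand (GGAATG, 58 bases before the start). *Myl2* has E-boxes 22 bases before its upstream start and 130 and 48 bases before its downstream start, with 1 more past each start. *Tnni1* has them 224, 191, 68, and 31 bases before the start shown, and *Tnnc1* 197 and 145 bases before. A match is letters only, and no binding was measured.
*Myl2*, upstream start, chr5:122092474-122092773: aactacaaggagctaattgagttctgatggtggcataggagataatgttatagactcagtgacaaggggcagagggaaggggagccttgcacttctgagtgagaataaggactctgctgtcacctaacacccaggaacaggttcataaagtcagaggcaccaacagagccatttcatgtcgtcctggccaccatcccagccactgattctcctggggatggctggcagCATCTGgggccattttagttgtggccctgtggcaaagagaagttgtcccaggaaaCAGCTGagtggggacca
*Myl2*, downstream start, chr5:122092939-122093238: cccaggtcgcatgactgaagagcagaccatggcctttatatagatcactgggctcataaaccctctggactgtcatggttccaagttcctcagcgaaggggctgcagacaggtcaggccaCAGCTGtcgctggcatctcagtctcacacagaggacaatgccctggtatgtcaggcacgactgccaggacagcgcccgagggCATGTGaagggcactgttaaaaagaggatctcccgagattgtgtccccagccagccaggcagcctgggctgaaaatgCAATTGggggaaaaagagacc
*Tnni1*, chr1:135799171-135799470: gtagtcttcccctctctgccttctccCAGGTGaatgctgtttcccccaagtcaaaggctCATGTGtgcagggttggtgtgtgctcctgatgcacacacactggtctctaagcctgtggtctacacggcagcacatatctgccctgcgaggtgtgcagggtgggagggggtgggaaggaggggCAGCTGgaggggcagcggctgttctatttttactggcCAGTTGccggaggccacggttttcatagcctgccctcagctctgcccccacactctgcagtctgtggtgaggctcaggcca
*Tnnc1*, chr14:31208062-31208361: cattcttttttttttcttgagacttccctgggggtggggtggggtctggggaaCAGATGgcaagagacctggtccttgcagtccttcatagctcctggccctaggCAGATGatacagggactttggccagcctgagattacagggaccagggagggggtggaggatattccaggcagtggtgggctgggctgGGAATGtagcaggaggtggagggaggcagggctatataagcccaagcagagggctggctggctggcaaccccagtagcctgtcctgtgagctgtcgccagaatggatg

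No set of fast isoforms differed by amounts like those of the slow ones. Of 20 fast-fiber genes, 0 passed limma's test, 0 were higher and 2 lower in Δ1w muscle at an unadjusted p under 0.05, and the median difference was −0.02. *Myoz3*, a fast-fiber Z-disc protein, was at 10.72, 10.76, and 11.00 in Δ1w, 11.76, 11.62, and 11.59 in Δ2w, and 12.23, 12.03, and 12.06 in control muscle, with no overlap among the 3 groups. *Myh2*, the myosin of the most oxidative fast fibers, was at 18.05, 18.21, and 18.45 in Δ1w and 18.58, 18.51, and 19.25 in Δ2w muscle, where the control mice (18.76, 19.01, and 17.88) covered both. Differences were within 0.15 for 13 of the 20, with standard errors from 0.15 to 0.25, and 6 had a mean above 19, near the ceiling, where a lower level could not be seen. The mean of the list was 17.82, 17.81, and 17.79 in Δ1w, 17.97, 17.97, and 17.88 in Δ2w, and 18.02, 17.90, and 17.95 in control muscle, so the Δ1w arrays were the 3 lowest by a small margin. Among 24 transcription factors of fiber type, *Sox6*, a repressor of slow genes, was at 13.12, 12.97, and 12.85 in Δ1w, 13.47, 13.54, and 13.39 in Δ2w, and 13.60, 13.23, and 13.72 in control muscle (difference −0.49, standard error 0.16, adjusted p = 0.517). *Nfatc1*, the calcineurin target that favours slow genes, was at 11.17, 11.04, and 11.01 in Δ1w and 10.67, 10.55, and 10.50 in Δ2w muscle (difference 0.50, standard error 0.16, adjusted p = 0.487), while the control mice (10.86, 11.05, and 10.99) were near Δ1w. *Vgll2*, a TEAD cofactor, was higher by 0.49 in Δ1w muscle (standard error 0.21). The list held 2 higher and 1 lower at an unadjusted p under 0.05, with a median of 0.04. Of 16 developmental isoform genes, *Myl4*, the embryonic light chain, was the only one at an unadjusted p under 0.05 (higher by 0.76, standard error 0.18). *Myh3*, embryonic myosin, was at 7.67, 9.59, and 8.62 in Δ1w and 8.03, 7.35, and 8.18 in Δ2w muscle, which overlap.

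Another set of genes was graded over the 3 groups. Among the 278 genes furthest apart by the naming rule (an unadjusted p under 0.01, no overlap between the models, and a mean of at least 7 in the higher one), 27 had every Δ1w array above every Δ2w array and every Δ2w array above every control array, and 20 had the reverse order. These were 19.9% of the 136 rows higher and 14.1% of the 142 rows lower in Δ1w muscle. Among all rows with no overlap between the models, a part of this order, it held in 7.63% and 6.85%, with no filter on p or level. The 27 hold near-identical copies of the chemokine gene *Ccl21*, which are not separate evidence. The genes named from this set were chosen after their values were seen, and stand for no pathway that was tested. Among those lowest in Δ1w muscle, *Ryr1*, the calcium release channel, was at 15.28, 14.85, and 14.90 in Δ1w, 15.54, 15.66, and 15.54 in Δ2w, and 15.92, 15.97, and 15.89 in control muscle (difference between the models −0.57, standard error 0.18, adjusted p = 0.482). *Stac3*, an adaptor of the voltage sensor, was at 12.27, 12.03, and 11.99 in Δ1w, 12.75, 12.59, and 12.82 in Δ2w, and 13.11, 13.06, and 13.14 in control muscle. *Clcn1*, the muscle chloride channel, was at 13.63, 12.90, and 13.16 in Δ1w, 14.04, 14.14, and 13.80 in Δ2w, and 14.31, 14.46, and 14.35 in control muscle. In these genes the Δ2w mice were tightly grouped between the others. *Sgcb*, a sarcoglycan of the membrane complex, had a difference of −0.69 (standard error 0.19), *Tmod4*, a thin filament cap, −1.03 (standard error 0.27), and *Mettl21e*, a muscle methyltransferase, −1.21 (standard error 0.29). In *Tmod4*, Δ1w replicate 1 (15.36) was close to the Δ2w mice (15.77, 15.81, and 15.62) and Δ1w replicates 5 and 8 were not (14.36 and 14.38).

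Among those highest in Δ1w muscle, *Rgcc*, a regulator of cell cycle kinases, was at 11.10, 11.51, and 11.50 in Δ1w, 8.99, 9.35, and 9.84 in Δ2w, and 8.75, 8.56, and 8.67 in control muscle. Δ1w muscle stood well clear of both other groups, which were close to each other (difference between the models 1.98, standard error 0.24, adjusted p = 0.109). With the 3 groups in 1 model it passed (adjusted p = 0.028), as it did with a trended and robust variance (adjusted p = 0.0279), and over the 16 alternatives the difference was 1.75 to 2.20. *Zfp385a*, a zinc finger protein of the p53 pathway, was at 11.37, 11.47, and 11.62 in Δ1w, 10.38, 10.30, and 10.28 in Δ2w, and 9.33, 9.02, and 9.55 in control muscle, in even steps (difference 1.17, standard error 0.16, adjusted p = 0.145). *Fam171b*, a membrane protein, was at 10.47, 11.52, and 11.00 in Δ1w, 9.81, 9.31, and 9.31 in Δ2w, and 7.80, 7.87, and 7.79 in control muscle. *Tceal7*, a transcription elongation factor-like gene, was higher in Δ1w than in Δ2w muscle by 1.21 (standard error 0.32), *Mllt11* by 1.04 (standard error 0.21), *Serpinb6a*, a protease inhibitor, by 1.0 (standard error 0.20), and *Cilp*, a matrix protein, by 1.02 (standard error 0.30). *Mfap2* and *Svep1*, also matrix proteins, were higher by 1.09 (standard error 0.32) and 1.02 (standard error 0.27), in each case least in Δ1w replicate 1.

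**Figure D2:**
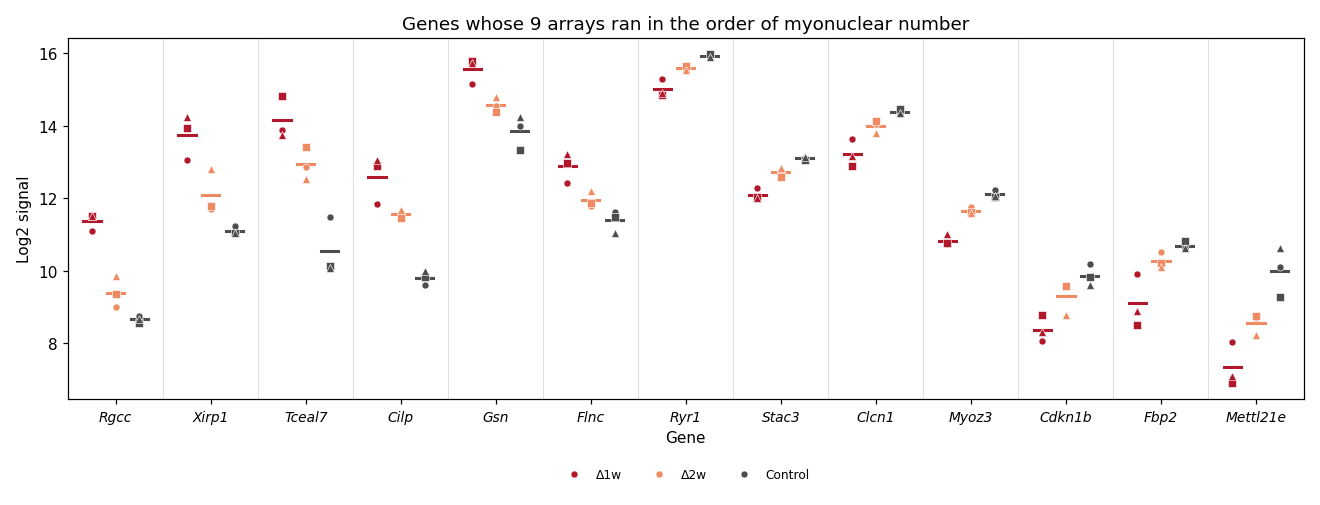
Log2 signal (y axis) of 13 genes (x axis) in which all 9 arrays followed the order Δ1w, Δ2w, control, chosen after their values were seen. Points are single mice and bars are means, drawn as in the plot of slow-fiber genes. From *Rgcc* to *Flnc* the Δ1w mice are highest, and from *Ryr1* to *Mettl21e* they are lowest, with the Δ2w mice between.

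Cell cycle inhibitors split. Of 19 inhibitors and D-type cyclins, 3 were higher and 3 lower in Δ1w muscle at an unadjusted p under 0.05, with 0 past limma's adjusted test and a median of 0.00. *Cdkn1a* (p21) was at 12.77, 12.74, and 11.59 in Δ1w, 10.21, 11.48, and 11.21 in Δ2w, and 10.74, 11.16, and 10.92 in control muscle, with Δ1w replicate 8 barely above the Δ2w range (difference 1.40, standard error 0.39, adjusted p = 0.468). The related inhibitors ran the other way. *Cdkn1b* (p27) was at 8.06, 8.76, and 8.29 in Δ1w, 9.54, 9.57, and 8.77 in Δ2w, and 10.17, 9.82, and 9.59 in control muscle, and *Cdkn1c* (p57) at 6.14, 6.17, and 6.36 in Δ1w, 6.86, 6.67, and 7.01 in Δ2w, and 8.44, 8.24, and 8.43 in control muscle. *Cdkn1c* was thus near the median of the negative control probes in Δ1w muscle (difference −0.62, standard error 0.17). Of 26 proliferation genes 0 passed limma's adjusted test and 0 had an unadjusted p under 0.05, with a mean of 6.55, 7.03, and 8.25 in the Δ1w arrays and 7.15, 7.20, and 7.80 in the Δ2w arrays. Without Δ1w replicate 8 there were 9 lower and a median of −0.49, and without Δ1w replicate 1 the median was 0.25.

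Stress genes of several kinds were above Δ2w levels in Δ1w muscle, each singly and none past the adjusted test. The counts at an unadjusted p below are small, and over all rows 4.43% were higher and 3.95% lower at that p. Without Δ2w replicate 3 the ATF4 list had 1 higher in place of 4. Without Δ2w replicate 2 the oxidative stress and heat shock lists had 2 each in place of 5 and 4. Of 34 p53 targets and apoptosis regulators, 5 were higher and 1 lower at an unadjusted p under 0.05, with a median of 0.02. *Rrad*, a small GTPase induced by p53, was at 6.98, 7.28, and 6.04 in Δ1w, 4.72, 4.31, and 5.36 in Δ2w, and 4.50, 5.11, and 5.06 in control muscle, below the median of the negative control probes in all Δ2w and control mice. *Cyfip2* was higher by 1.16 (standard error 0.26) and *Nol3*, an apoptosis repressor of muscle, by 0.76 (standard error 0.22). *Sesn1*, a stress-induced p53 target, ran the other way at 9.36, 9.23, and 9.60 in Δ1w, 10.05, 10.09, and 10.05 in Δ2w, and 10.35, 10.70, and 10.47 in control muscle. Of 29 genes of ATF4 signalling and the unfolded protein response, 4 were higher and 1 lower, with a median of 0.03. *Atf4* itself was at 14.30, 14.33, and 14.45 in Δ1w, 13.71, 13.84, and 13.53 in Δ2w, and 13.42, 13.48, and 13.33 in control muscle (difference 0.67, standard error 0.16, adjusted p = 0.395). *Chac1*, a target of ATF4, had a difference of −0.93 (standard error 0.33).

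Of 17 heat shock genes, 4 were higher and 0 lower at an unadjusted p under 0.05, with a median of 0.19. *Hspb1*, a small heat shock protein, was at 13.91, 14.91, and 14.91 in Δ1w, 12.83, 12.57, and 13.59 in Δ2w, and 12.46, 12.74, and 11.90 in control muscle. *Bag3*, its co-chaperone at the Z-disc, was at 13.82, 13.13, and 13.79 in Δ1w and 12.67, 12.54, and 12.86 in Δ2w muscle, with a control mouse (replicate 2) as high as Δ1w at 13.82. Of 27 oxidative stress genes, 5 were higher and 1 lower, with a median of 0.08. *Sod3*, the extracellular superoxide dismutase, had its lowest Δ1w signal at 8.84, in replicate 1, against 8.43, 7.57, and 7.73 in Δ2w and 7.41, 8.35, and 7.49 in control muscle (difference 1.49, standard error 0.32). *Gpx1* and *Gpx4*, glutathione peroxidases, were higher by 0.49 and 0.48 (standard error 0.16 each). The Z-disc list of 21 genes split, with 5 higher and 4 lower and a median of 0.05. *Xirp1*, an actin-binding repair protein, was at 13.04, 13.93, and 14.24 in Δ1w, 11.70, 11.78, and 12.81 in Δ2w, and 11.24, 11.03, and 11.04 in control muscle. *Flnc*, filamin C, was higher by 0.93 (standard error 0.23) and *Ankrd1*, a stretch-induced cofactor, by 1.53 (standard error 0.41). *Lmod2*, a thin filament nucleator, was at 12.95, 12.27, and 11.87 in Δ1w, 13.48, 13.41, and 14.06 in Δ2w, and 14.11, 13.14, and 12.42 in control muscle, where the control mice overlapped both models.

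After *Myl2*, the smallest p belonged to *Scd1*, the desaturase that makes monounsaturated fatty acids. Its signal was 14.13, 14.81, and 14.29 in Δ1w, 11.40, 12.35, and 11.73 in Δ2w, and 11.25, 11.38, and 14.17 in control muscle. Every Δ1w mouse was above every Δ2w mouse, but so was control replicate 6. The difference between the models was 2.58, or 5.99-fold (standard error 0.27, adjusted p = 0.0574), with adjusted p = 0.00789 to 0.516 over 16 alternatives, of which 3 called it. Other enzymes of fatty acid synthesis, listed after these values were seen, had the same direction in part. *Fasn*, fatty acid synthase, was at 9.59, 9.99, and 8.78 in Δ1w, 7.25, 7.91, and 7.58 in Δ2w, and 7.66, 7.0, and 9.99 in control muscle (difference 1.87, standard error 0.31, adjusted p = 0.197). *Acly* (ATP-citrate lyase) was higher by 1.22 (standard error 0.29), *Elovl6* by 0.86 (standard error 0.28), and *Acaca* (acetyl-CoA carboxylase) by 0.73 (standard error 0.21). *Gpam*, which starts glycerolipid synthesis, was at 14.42, 14.44, and 14.16 in Δ1w and 14.97, 14.86, and 14.84 in Δ2w muscle, the opposite direction. Of the 16 genes, 5 were higher and 1 lower at an unadjusted p under 0.05, and the median was 0.29.

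Adipocyte markers were also higher in part. Of 11, 3 were higher and 0 lower at an unadjusted p under 0.05, with a median of 0.08, and their mean was 9.14, 9.53, and 8.53 in Δ1w, 8.49, 8.81, and 8.54 in Δ2w, and 8.56, 8.40, and 9.85 in control muscle. *Adipoq*, adiponectin, was at 8.24, 9.56, and 6.72 in Δ1w, 6.45, 7.13, and 5.43 in Δ2w, and 5.69, 5.40, and 9.09 in control muscle, so control replicate 6, the control mouse high in *Scd1* and *Fasn*, was high here too. Of the 11 markers, 7 had a positive sign and 4 a negative sign. *Retn*, resistin, was higher in Δ1w muscle by 1.87 (standard error 0.46). *Hp*, haptoglobin, which is not among the 11, was higher by 1.75 (standard error 0.52). Control replicate 6 was at 7.80 for *Retn* and 8.90 for *Hp*. It lay above Δ1w replicates 1 and 8 in *Retn* (6.96 and 6.67) and in *Hp* (7.24 and 7.36). In both genes it lay below Δ1w replicate 5 (8.58 and 9.26). Δ1w replicate 8 had *Adipoq* (6.72) within the Δ2w range, but *Retn* (6.67) above it. *Plin1*, perilipin 1, was barely above it in that mouse (5.07, against 4.56, 5.03, and 4.28 in Δ2w). Its *Scd1*, at 14.29, was above all Δ2w mice. The part of fat cells in the other differences was not tested.

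**Figure D3:**
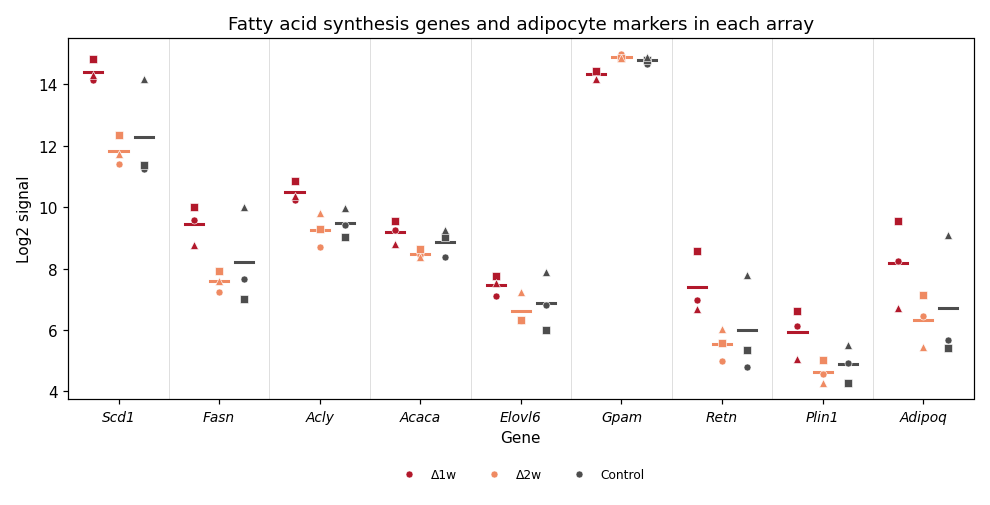
Log2 signal (y axis) of 6 fatty acid synthesis genes and 3 adipocyte markers (x axis), with points for single mice and bars for means, drawn as in the plot of slow-fiber genes. The dark triangle is control replicate 6, which lies with the Δ1w mice in *Scd1* (14.17), *Fasn* (9.99), and *Adipoq* (9.09).

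Among genes lower in Δ1w muscle, *Sgk1* had the smallest p. It encodes a kinase that responds to glucocorticoids and growth signals, and was at 12.63, 12.79, and 12.01 in Δ1w, 14.46, 14.81, and 14.05 in Δ2w, and 14.74, 12.98, and 14.76 in control muscle. Control replicate 2 lay near Δ1w. The difference was −1.96 (standard error 0.26, adjusted p = 0.145), and it passed with a trended and robust variance (adjusted p = 0.0303) and with Y-linked genes as a covariate (adjusted p = 0.0372). *Klhl33*, a kelch protein, was at 11.04, 11.20, and 11.16 in Δ1w, 12.75, 12.83, and 12.14 in Δ2w, and 12.99, 12.64, and 13.43 in control muscle (difference −1.44, standard error 0.21, adjusted p = 0.193). *Cacna2d4*, a calcium channel subunit, was at 6.81, 7.29, and 6.37 in Δ1w, 8.96, 9.36, and 7.81 in Δ2w, and 8.93, 9.41, and 7.81 in control muscle, with Δ2w at the level of control. *Slc7a8*, an amino acid transporter, had a difference of −1.58 (standard error 0.29), *Slc25a25*, a mitochondrial ATP-Mg carrier, −1.59 (standard error 0.33), and *Acvr1b*, a receptor for activin and myostatin, −1.39 (standard error 0.26). The rest of the 12 largest differences in this direction were *Stxbp4*, *Lvrn*, *Rcl1*, *Adh1*, *Cep85l*, and *Lmod2*, at −1.41 to −1.29, and the rest of the 12 in the other direction was *Egr2*, an immediate early gene, at 9.22, 9.53, and 11.57 in Δ1w and 8.13, 8.58, and 8.57 in Δ2w muscle.

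Relative to control, Δ2w muscle took no fixed position among these genes. Of the 24 largest differences, the Δ2w mean lay between the Δ1w and control means in 10, and the control mean lay between the Δ1w and Δ2w means in 14. Over all rows these shares were 41.5% and 29.3%. The choice of rows by their difference leaves little room for Δ1w in the middle, so these counts are a description. For the 12 genes higher in Δ1w muscle the split was 3 and 9, and for the 12 lower 7 and 5. Among all 278 genes furthest apart the majority was the other one, with Δ2w between in 157 (56.5%) and control between in 119 (42.8%), and for the 136 higher among them 80 and 54.

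Lists of ribosome production and mitochondrial metabolism differed little. Of 22 ribosome biogenesis genes, 0 were higher and 4 lower at an unadjusted p under 0.05, none passed limma's adjusted test, and 7 (31.8%) lay below Δ2w with no overlap, against 6.97% of all rows. The median was −0.10, with 13 negative and 9 positive signs, and with the LacZ allele as a covariate 1 was higher and 1 lower. *Rcl1*, a processing factor of ribosomal RNA, was at 9.71, 8.80, and 9.10 in Δ1w, 10.84, 10.44, and 10.45 in Δ2w, and 10.91, 10.68, and 11.57 in control muscle. *Dkc1*, dyskerin, was at 6.89, 7.22, and 6.78 in Δ1w and 7.54, 7.74, and 7.72 in Δ2w muscle, and *Polr1a* and *Polr1b*, RNA polymerase I subunits, had differences of −0.44 (standard error 0.19) and −0.54 (standard error 0.18). Of 19 tricarboxylic acid cycle genes, 17 had a negative sign and 6 no overlap, with a median of −0.19, but 0 passed limma's adjusted test and 0 had an unadjusted p under 0.05, and the mean of Δ1w replicate 1 (14.10) lay within the Δ2w range (14.09, 14.15, and 14.06). For 29 oxidative phosphorylation genes the median was −0.06, with 1 higher (*Cox8b*) and 2 lower (*Ndufs1* and *Ndufv1*). *Fbp2*, muscle fructose bisphosphatase, was at 9.90, 8.51, and 8.87 in Δ1w, 10.51, 10.22, and 10.10 in Δ2w, and 10.62, 10.82, and 10.62 in control muscle, and *Ppp1r3c*, which promotes glycogen synthesis, was higher in Δ1w muscle by 0.84 (standard error 0.27). *Ucp3*, a mitochondrial carrier, had a difference of −1.10 (standard error 0.45). The lists of RNA polymerase II transcription, glycolysis, fatty acid use, and imprinted growth genes had medians of −0.07 to −0.01.

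Of 25 genes of denervation and the neuromuscular junction, 4 were higher and 4 lower at an unadjusted p under 0.05, with a median of 0.01. The 4 higher include *Sln* (difference 3.36), which is counted among the slow-fiber genes as well. *Musk*, the agrin receptor kinase, was at 9.18, 9.29, and 9.02 in Δ1w, 9.90, 10.04, and 9.64 in Δ2w, and 9.49, 9.20, and 10.10 in control muscle. *Lrp4*, its partner, had a difference of −0.60 (standard error 0.21) and *Chrnb1*, an acetylcholine receptor subunit, −0.51 (standard error 0.19). *Runx1*, induced by denervation, was at 6.62, 8.03, and 7.60 in Δ1w, 6.36, 6.28, and 6.27 in Δ2w, and 6.48, 6.43, and 6.73 in control muscle. Among 29 growth signalling genes, 3 were higher and 2 lower, with a median of 0.01. *Igfbp6*, a binding protein for insulin-like growth factors, was at 10.22, 10.73, and 10.94 in Δ1w, 9.41, 8.91, and 9.16 in Δ2w, and 8.10, 8.91, and 9.24 in control muscle (difference 1.47, standard error 0.23, adjusted p = 0.193). *Fst*, follistatin, which binds myostatin, was higher by 0.72 (standard error 0.22), and *Mstn*, myostatin itself, was at 11.57, 11.25, and 10.42 in Δ1w, 12.20, 12.24, and 11.51 in Δ2w, and 12.18, 11.60, and 12.67 in control muscle (difference −0.90, standard error 0.31), with an overlap through Δ1w replicate 1. Of 22 atrophy genes, 3 were higher and 2 lower, with a median of −0.06 (0 higher and 1 lower without Δ2w replicate 4), and *Fbxo32* (atrogin-1) was higher by 0.80 (standard error 0.32). Of 18 myogenic and fusion genes 0 passed limma's adjusted test and 0 had an unadjusted p under 0.05, with a median of 0.07. Of 15 satellite cell genes only *Hey1*, a Notch target, had an unadjusted p under 0.05, at 8.95, 7.99, and 9.01 in Δ1w, 10.19, 9.58, and 9.84 in Δ2w, and 10.11, 9.43, and 9.58 in control muscle. *Pax7* was at 4.67, 4.81, and 4.51 in Δ1w and 4.49, 4.43, and 4.36 in Δ2w muscle, under the median of the negative control probes.

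Markers of cells other than fibers also differed, and mostly through Δ1w replicates 5 and 8. All 18 fibroblast and matrix genes had a positive sign, with a median of 0.62. At an unadjusted p under 0.05, 6 (33.3%) were higher, against 4.43% of all rows, and 3 (16.7%) had no overlap, against 7.2%. Their mean was 12.71, 13.77, and 13.71 in Δ1w, 12.93, 12.50, and 12.98 in Δ2w, and 12.47, 12.15, and 12.62 in control muscle, so Δ1w replicate 1 was within the Δ2w range. Without it the count was 16, and without Δ1w replicate 5 or Δ2w replicate 3 it was 2 or 1. *Gsn*, gelsolin, separated all 3 groups, at 15.16, 15.78, and 15.72 in Δ1w, 14.53, 14.38, and 14.79 in Δ2w, and 13.99, 13.33, and 14.24 in control muscle. *Lum*, lumican, was at 15.16, 16.15, and 16.15 in Δ1w and 15.38, 14.65, and 15.25 in Δ2w muscle. The 14 tendon and cartilage genes behaved alike, with 5 higher, a median of 0.48, and means of 8.46, 9.57, and 9.33 in Δ1w, 8.71, 8.24, and 8.74 in Δ2w, and 8.13, 8.50, and 8.90 in control muscle. *Fmod*, fibromodulin, was at 13.38, 15.60, and 14.58 in Δ1w and 13.39, 12.63, and 13.10 in Δ2w muscle, and as in *Lum* Δ1w replicate 1 lay under the highest Δ2w mouse. Over all 20 slow-fiber genes, as given above, Δ1w replicate 1 (12.64) was also the lowest Δ1w mouse (13.11 and 13.15 in replicates 5 and 8). Its mean there was above those of the Δ2w mice. Of 18 immune genes 2 were higher, with a median of 0.37 (6 without Δ1w replicate 1 and 0 without Δ1w replicate 8), and of 15 endothelial genes 1 was higher (*Plvap*, by 1.24, standard error 0.24) and 3 lower (*Aqp1*, *Tie1*, and *Cdh5*, at −0.57 to −0.51), with a median of −0.13. The part of these cells in the differences above was not tested.

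**Figure D4:**
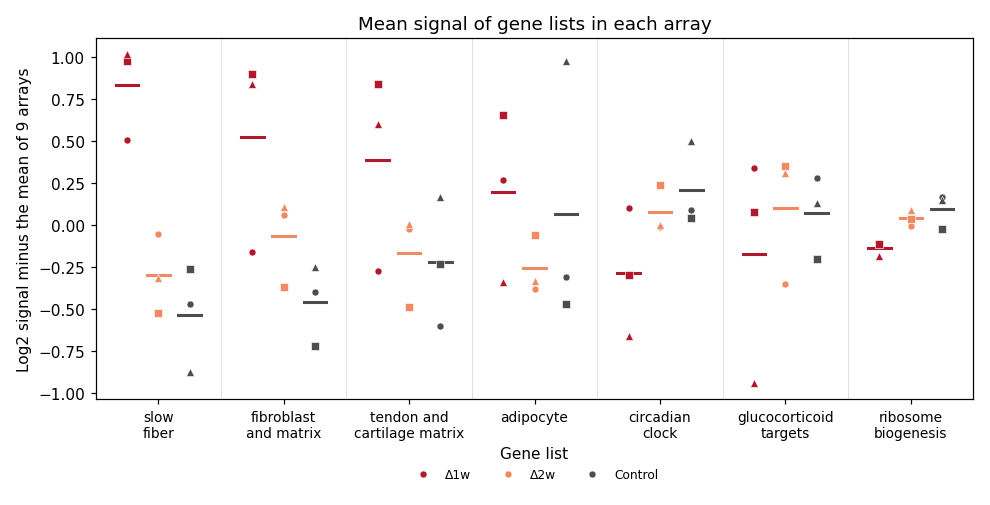
Mean log2 signal of 7 gene lists in each array, given as the difference from the mean of the 9 arrays (y axis), with Δ1w, Δ2w, and control arrays from left to right in each list (x axis). Points are single mice (shapes as in the plot of slow-fiber genes) and bars are means. The Δ1w mice are the 3 highest in slow-fiber genes, while in fibroblast and tendon genes the circle, Δ1w replicate 1, lies among the Δ2w mice.

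Clock genes separated the Δ1w mice from each other. *Arntl*, the clock activator BMAL1, was at 8.95, 10.85, and 10.54 in Δ1w, 8.60, 8.93, and 8.56 in Δ2w, and 8.15, 8.88, and 7.95 in control muscle, and *Dbp*, a clock output gene of the opposite phase, at 16.12, 14.40, and 13.78 in Δ1w, 16.14, 16.22, and 15.60 in Δ2w, and 16.12, 16.25, and 16.99 in control muscle. Δ1w replicate 1 was at the Δ2w level in both and Δ1w replicates 5 and 8 were not. Of 17 clock genes, 2 were higher and 5 lower at an unadjusted p under 0.05, with a median of −0.34. Without Δ1w replicate 1 these were 2 and 8 (median −0.63), and without Δ1w replicate 5 or 8 they were 1 and 1 (−0.24 and −0.22). Of 16 glucocorticoid targets, 2 were higher and 3 lower, with a median of −0.41 and *Sgk1* and *Klf9* among the lower. Without Δ1w replicate 8 the median was 0.02, with 3 higher and 2 lower. With an index of clock genes as a covariate 0 rows passed limma's adjusted test (1799 at an unadjusted p under 0.05), the slow-fiber median was 0.48 with 10 members higher, and the fibroblast median was −0.05 with 1 higher. The proliferation list then had 12 members lower and a median of −0.86, against 0 and −0.04 without the covariate, and the glucocorticoid median was 0.29. Y-linked genes averaged 9.16, 9.67, and 4.33 in Δ1w and 9.80, 9.58, and 4.09 in Δ2w muscle, with 1 low array in each model.

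The genes that the study displays in heat maps were chosen on these samples and are no independent evidence of a direction. Of its 10 fiber type genes, 6 were higher and 1 lower in Δ1w than in Δ2w mice at an unadjusted p under 0.05, with a median of 1.78. Of 9 measured genes of apoptosis and oxidative stress, 7 were higher and 1 lower, with a median of 0.76. Of its 10 genes of muscle development, 3 were higher (*Xirp1*, *Ostn*, and *Tceal7*) and 1 lower (*Panx1*), with a median of 0.30. In none of these sets did a gene pass limma's adjusted test. *Panx1*, a membrane channel, was at 8.86, 9.32, and 9.34 in Δ1w, 9.74, 10.22, and 9.44 in Δ2w, and 8.48, 8.39, and 8.05 in control muscle, and so was highest in Δ2w muscle. *Ostn*, the secreted peptide osteocrin, was at 8.61, 9.57, and 8.61 in Δ1w, 8.06, 7.72, and 7.47 in Δ2w, and 7.22, 6.71, and 7.37 in control muscle. Other genes stood off control by similar amounts in both models. *Npr3*, the clearance receptor that binds osteocrin, was at 12.72, 14.46, and 13.88 in Δ1w, 13.39, 13.12, and 13.54 in Δ2w, and 11.04, 10.04, and 10.72 in control muscle (difference between the models 0.34, standard error 0.38). *Mustn1*, a small nuclear protein of muscle, was at 16.63, 16.61, and 16.69 in Δ1w, 16.49, 16.78, and 17.01 in Δ2w, and 15.37, 15.74, and 15.17 in control muscle (−0.12, standard error 0.18). *Ctnna3* and *Prox1* differed between the models by 0.27 (standard error 0.27) and 0.25 (standard error 0.20).

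**Figure D5:**
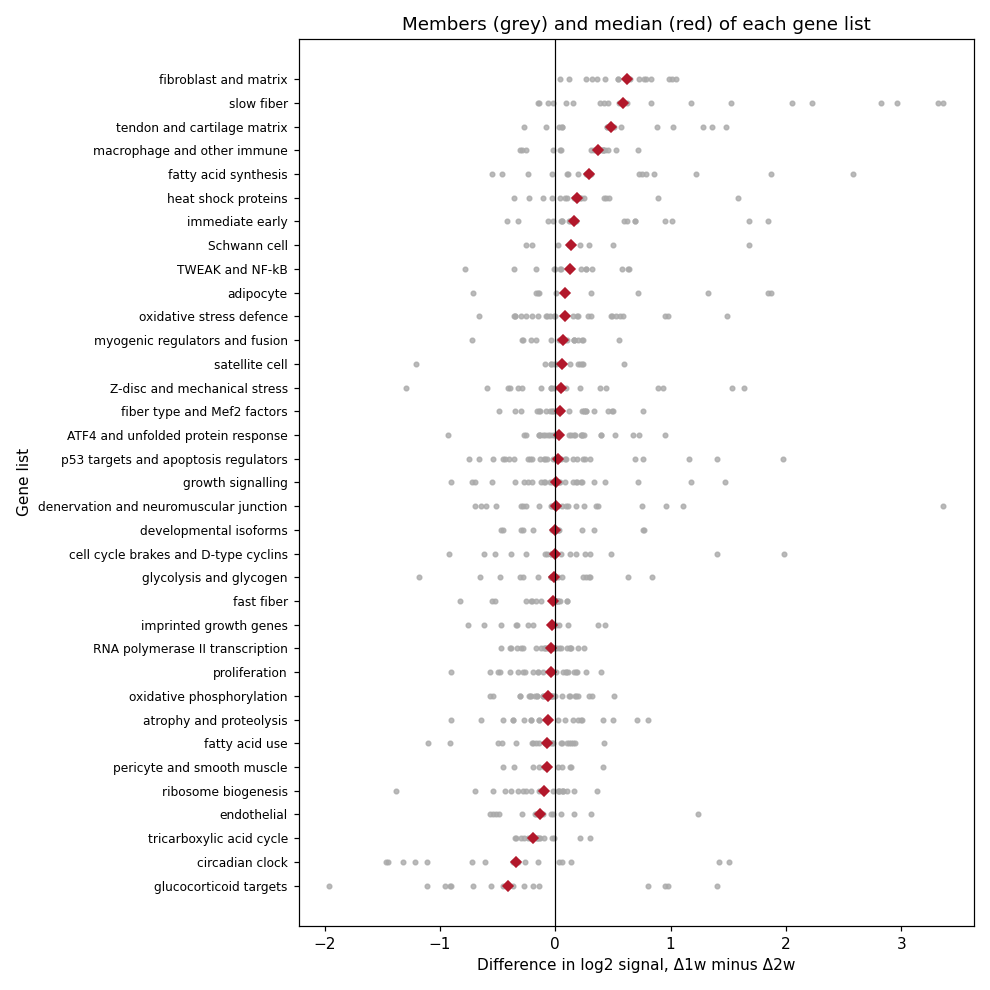
Difference in log2 signal, Δ1w minus Δ2w (x axis), of the members (grey) and the median (red) of 35 gene lists (y axis), ordered by median, without the study's heat map sets. Most medians lie near 0, fibroblast and matrix (0.62) and slow fiber (0.59) are highest of those shown, and the 4 slow-fiber members at the far right are *Sln*, *Myh7*, *Tnni1*, and *Tnnc1*.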

How the data were processed

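The authors extracted total RNA from the TA and hybridised 1 Clariom S Mouse array per mouse. The deposited table holds log2 signals made with Affymetrix Expression Console, per the submitters' processing notes, with 1 value per row and array. Normalization, background correction, and probe summary were done by the authors, and the sources used here name no genome build for the array annotation. Of 28846 rows, 6640 control rows were left out and 22206 gene rows kept, of which 19572 have 1 gene symbol and 2634 none. Δ1w minus Δ2w was fitted on 6 arrays with limma 3.58.1 in R 4.3.3 (lmFit and eBayes, no covariates), with Benjamini-Hochberg adjustment and a threshold of 0.05. The fit was tested on simulated data (20 runs, 200 rows changed). Its mean number of false calls was 4.10. Gene lists were described by counts and medians, without a test. Genes named are those called, the 12 largest differences each way among rows with 1 symbol, an unadjusted p under 0.01, no overlap, and a mean of at least 7, up to 3 members per list by smallest p, *Mymk*, and genes labelled in the study's heat maps. Other list members at an unadjusted p under 0.05, and the graded genes, were added after their values were seen. Members and lists were chosen with earlier results of these data known. Tables and figures were made with Python 3.11.15, pandas 2.3.3, scipy 1.17.1, and matplotlib 3.10.9. Sequences are from RefSeq on GRCm38.p6. The number of arrays limits the precision. Alternative settings were another normalization, centring, a filter on dim rows, variance and weight options, covariates, blocks, and leaving out each array.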

Additional observations from a re-analysis of the deposited data

How the results depend on the processing

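The number of rows called, 1 in the comparison as reported, was 5 with a trended and robust variance (*Myl2*, *Scd1*, *Rgcc*, *Sgk1*, and *Zfp385a*). It was 2 with a random block for the name prefix (*Myl2* and *Scd1*). The models share no prefix, so this block removes no prefix difference between them. With a covariate for Y-linked genes it was 2 (*Myl2* and *Sgk1*), and with the clock index 0 (1799 rows at an unadjusted p under 0.05). The LacZ covariate leaves 1 Δ1w mouse in the contrast, so no number of calls is given for it. Leaving out 1 array gave 0 to 8 calls. It was 8 without Δ1w replicate 1, and 0 without Δ1w replicate 5, Δ1w replicate 8, Δ2w replicate 3, or Δ2w replicate 4 by limma, where 1546, 1827, 1221, and 1473 rows had an unadjusted p under 0.05. That unadjusted count, 1861 as reported, ran from 1221 to 2585 over the 6 omissions. The methods' t-test gave 0 rows after Benjamini-Hochberg adjustment and 1542 at an unadjusted p under 0.05, and a 2-fold limit with an unadjusted p gave 149. All 3 groups in 1 model called 1 row, *Rgcc* in place of *Myl2*. Centring the arrays turned the unadjusted split of 983 higher and 878 lower to 800 and 1040. The slow-fiber median stayed positive (0.48 to 0.79), and so did the difference in distance, with an exact one-sided p of 0.20 in place of 0.10 on the most variable rows alone. For single genes, 3208 of the values under 16 alternatives kept their direction and side of the threshold, 12 passed it newly, 7 fell short of it, and 45, in 17 genes, changed sign.

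With the LacZ allele as a covariate the difference is that of Δ1w replicate 5, the only Δ1w mouse with the allele, from the Δ2w mean. It was −0.54 for *Nmrk2*, −0.10 for *Mymk*, −0.06 for *Kcnj8*, 0.34 for *Slc4a1*, 0.18 for *Myog*, 1.40 for *Uty*, 2.83 for *Eif2s3y*, and 0.06 for *Igfbp5*. The clock index is made from the clock genes, so members such as *Dbp* lose their difference under it by construction. With the clock index the difference became −0.01 for *Npas2*, −0.17 for *Itga7*, −0.42 for *Npr3*, −0.45 for *Alas2*, −0.13 for *Myh1*, −0.02 for *Myh4*, 0.00 for *Myog*, 2.66 for *Uty*, 2.11 for *Eif2s3y*, and 0.02 for *Dbp*. Array weights gave −0.23 for *Kdm5d* and 0.02 for *Slc4a1*. The Y-linked covariate, which holds *Uty* itself, gave 0.04 for *Uty*. Quantile normalization gave −0.01 for *Myh1* and *Myh4*, and centring −0.01 for *Myh1* and −0.02 for *Myh4*. Over the omissions of 1 array the difference ran from −0.05 to 0.82 for *Npr3*, −0.03 to 0.68 for *Alas2*, −1.05 to 1.24 for *Kdm5d*, −0.06 to 0.11 for *Myh1*, −0.01 to 0.03 for *Myh4*, −0.19 to 0.21 for *Slc4a1*, −0.28 to 0.10 for *Myog*, −2.17 to 1.67 for *Uty*, −0.26 to 0.00 for *Mustn1*, and −2.69 to 1.86 for *Eif2s3y*. Beyond how these covariates are built, the cause of these changes was not tested. No paired analysis was possible, because each array is a separate mouse and the labels pair no Δ1w mouse with a Δ2w mouse. Of all rows, 10060 had a mean under 6, where background limits what can be seen, and a few fast-fiber genes sat at the ceiling.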
